A study of Mus musculus with 65 samples.

Results

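The genes described here encode hormone receptors and the regulators that mark hormone-sensing luminal cells of the mammary gland: Esr1, Pgr, Prlr, Greb1, Foxa1, Gata3, Tbx3, Tox3 and Cited1. They were chosen by name, and a gene was measured through the probe sets annotated to it alone. Of these 9 genes, 8 had such probe sets, 19 of 34958 single-gene probe sets on the array; Prlr was not analysed here. Messenger RNA was measured in mouse tissue on Affymetrix arrays, 17 of them from glands and 48 from tumours.

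The glands were the posterior part of the inguinal gland, lymph node removed, of BALB/c littermates. The labels give an age of 10 weeks for 1-week and 4-week glands alike, taken here as the age at exposure. All these mice, sham-treated ones included, were injected with estrogen and progesterone 2 days before exposure. Groups were Tgfb1 heterozygotes (TGFb1-HT) sham-treated (n = 3), 1 week after 10 cGy (n = 2) and 4 weeks after 10 cGy (n = 3), and the same for wild-type mice (n = 3 each). Every sham gland dates from 1 week. Hence 4-week glands differ from sham glands in exposure, in age and in time since the hormone injection. From irradiated 1-week glands they differ in age and in time since the injection and the exposure. The tumours all arose from unirradiated p53null BALB/c mammary fragments, transplanted to fat pads cleared of host epithelium at 3 weeks of age. Hosts were TGFb1 heterozygotes that were irradiated (n = 10) or sham-irradiated (n = 6), or wild type that were irradiated (n = 23) or sham-irradiated (n = 9), in each case 3 days before transplantation. No label states the dose given to the hosts. A heterozygous host is heterozygous throughout its own tissues, whereas the tumour epithelium comes from the donor fragments. In 1 tumour, counted among irradiated wild-type hosts by its title, the other labels say sham-irradiated.

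Estrogen receptor alpha (Esr1) and the progesterone receptor (Pgr), whose gene is itself induced by estrogen, are nuclear receptors found in a subset of luminal cells. Those cells pass hormonal signals on to their neighbours through secreted factors such as amphiregulin, RANK ligand and WNT4. Foxa1 opens chromatin for the estrogen receptor, Gata3 and Tbx3 are transcription factors of luminal identity, and Greb1, known from human breast cancer cells, is an estrogen-induced cofactor of the receptor. Cited1 is a co-regulator that in mice is needed for normal ductal growth at puberty, and Tox3 is an HMG-box protein whose locus is linked to human breast cancer risk.

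Promoters are printed because the levels of Pgr, Cited1, Foxa1 and Tox3 moved together most closely over all tumours. Tox3 was dim in most tumours, and its r with the others was lower in wild-type than in heterozygous hosts. Each is the 300-base RefSeq window of GRCm38.p6 around the transcription start, written in the direction of transcription with GGTCA, an arm of the estrogen response element, or its reverse complement TGACC in capitals. Pgr lies at chr9:8899583-8899882 on the plus strand, and Cited1 at chrX:102252132-102252431, Foxa1 at chr12:57546062-57546361 and Tox3 at chr8:90348203-90348502 lie on the minus strand. For Cited1, which has 3 windows, the one of the start farthest upstream is shown.
Pgr: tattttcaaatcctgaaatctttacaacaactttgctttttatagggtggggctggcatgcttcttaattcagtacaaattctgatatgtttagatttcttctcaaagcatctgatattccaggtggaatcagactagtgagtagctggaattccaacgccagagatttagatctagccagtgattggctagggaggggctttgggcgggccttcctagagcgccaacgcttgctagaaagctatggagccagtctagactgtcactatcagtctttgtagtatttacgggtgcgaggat
Cited1: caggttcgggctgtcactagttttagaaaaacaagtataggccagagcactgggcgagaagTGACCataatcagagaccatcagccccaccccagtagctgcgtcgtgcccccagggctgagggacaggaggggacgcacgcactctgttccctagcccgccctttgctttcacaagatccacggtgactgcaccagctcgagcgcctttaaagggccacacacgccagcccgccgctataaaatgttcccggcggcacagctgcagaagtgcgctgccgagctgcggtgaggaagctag
Foxa1: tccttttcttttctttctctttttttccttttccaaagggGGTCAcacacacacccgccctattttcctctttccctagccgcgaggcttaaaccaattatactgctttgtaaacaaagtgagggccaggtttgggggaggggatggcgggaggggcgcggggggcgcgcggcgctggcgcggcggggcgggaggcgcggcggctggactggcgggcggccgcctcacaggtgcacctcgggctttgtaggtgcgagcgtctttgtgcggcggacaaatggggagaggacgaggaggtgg
Tox3: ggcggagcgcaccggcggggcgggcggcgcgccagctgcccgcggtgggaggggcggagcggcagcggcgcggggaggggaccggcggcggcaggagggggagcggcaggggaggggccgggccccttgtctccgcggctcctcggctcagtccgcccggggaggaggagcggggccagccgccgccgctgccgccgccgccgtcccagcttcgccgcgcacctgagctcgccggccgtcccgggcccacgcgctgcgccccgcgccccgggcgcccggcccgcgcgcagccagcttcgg

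The full palindrome, GGTCA and TGACC separated by any 3 bases, occurred in 0 of 11 windows of the 7 measured genes with a window, against 0.07% of 32851 mouse windows. GGTCA, on either strand, occurred in 7 of the 11 windows (63.6%), from 5 of the 7 genes, against 40.5% of all windows. Pgr and Tox3 held no such match in these windows, while Esr1, Greb1, Foxa1, Gata3 and Cited1 held at least 1. The forkhead motif TGTTTAC was found in the Foxa1 window and in no other of the 11 (3.65% of all windows), and AGATAA in none of the 11 (11.2% of all). Both strands were searched for each motif, and a palindrome would also count as a GGTCA match. A match is a description of letters in the window. Tbx3 had no window in the table.

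In GRCm38.p6 the genes lie at chr10:4611989-5005633 (Esr1), chr9:8898900-8968611 (Pgr), chr12:16670615-16801394 (Greb1) and chr12:57540628-57548029 (Foxa1). Gata3 lies at chr2:9857078-9887953, Tbx3 at chr5:119670534-119684724, Tox3 at chr8:90247110-90349029 and Cited1 at chrX:102247378-102252181.

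Levels below are log2 values of the brightest probe set of each gene, and tissues are kept apart because they were deposited on different scales. In whole tissue, fewer cells of a type and less RNA per cell cannot be told apart. Epithelial markers were present in every gland, with list means of 9.88 to 10.70 on the log2 scale. Skeletal muscle markers stood more than 2 log2 units above the median in 7 glands, and B cell and lymph node markers in 2 glands. Arrays of a group correlated at 0.979 to 0.993 in glands and 0.907 to 0.990 in tumours. Whether gland replicates came from separate animals is not stated, so p-values measure the spread between these arrays.

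Neither hormone receptor passed the test in any gland comparison. Esr1 had 10.11, 10.03 and 9.58 in heterozygous sham glands, 10.13 and 9.90 at 1 week and 9.53, 9.32 and 9.59 at 4 weeks. In wild-type glands Esr1 had 9.60, 10.01 and 10.22 after sham treatment, 9.40, 9.54 and 9.69 at 1 week and 9.84, 9.42 and 9.65 at 4 weeks. The 3 heterozygous 4-week glands overlapped the lowest heterozygous sham gland, and all 17 glands lay between 9.32 and 10.22.

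Pgr had 10.59, 10.87 and 9.98 in heterozygous sham glands, 10.56 and 10.40 at 1 week and 10.04, 9.35 and 9.70 at 4 weeks. In wild-type glands Pgr had 10.11, 9.80 and 11.02 after sham treatment, 10.22, 10.24 and 10.14 at 1 week and 10.19, 9.93 and 10.41 at 4 weeks. The heterozygous 4-week mean was the lowest of the 6 group means, and its highest gland exceeded the lowest heterozygous sham gland.

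Greb1 averaged 8.44 ± 0.92 in heterozygous sham glands, 8.62 ± 0.09 at 1 week and 7.79 ± 0.07 at 4 weeks (SD, n = 3, 2 and 3). In wild-type glands Greb1 averaged 7.62 ± 0.82 after sham treatment, 8.32 ± 0.24 at 1 week and 7.39 ± 0.63 at 4 weeks (SD, n = 3 each). In both genotypes the 1-week mean was the highest and the 4-week mean the lowest, with sham glands spread across the range.

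Foxa1 group means ran between 9.34 ± 0.15 in heterozygous glands at 4 weeks and 10.08 ± 0.59 in wild-type glands at 4 weeks (SD, n = 3 each). Gata3 means ran between 9.33 ± 0.48 in heterozygous sham glands and 9.92 ± 0.29 in wild-type glands at 4 weeks (SD, n = 3 each). Groups next to each other in the order of means overlapped for Gata3. For Foxa1 they did too, except that the wild-type 1-week glands (highest 9.61) lay below the heterozygous 1-week glands (lowest 9.64).

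Tbx3 had 8.29, 8.94 and 8.43 in heterozygous sham glands, 7.70 and 8.03 at 1 week and 7.54, 7.42 and 7.94 at 4 weeks. In wild-type glands Tbx3 had 8.04, 8.00 and 8.53 after sham treatment, 7.80, 7.60 and 7.62 at 1 week and 7.89, 7.54 and 8.50 at 4 weeks. In heterozygotes each irradiated gland lay below each sham gland, and in wild-type mice this held at 1 week but not at 4 weeks.

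Tox3 had 4.20, 4.25 and 4.01 in heterozygous sham glands, 4.17 and 4.80 at 1 week and 5.17, 5.61 and 5.23 at 4 weeks. In wild-type glands Tox3 had 4.54, 5.39 and 5.43 after sham treatment, 4.77, 4.59 and 4.69 at 1 week and 5.69, 5.90 and 5.99 at 4 weeks. The 4-week glands were highest in each genotype and lay above every irradiated 1-week gland. Across genotypes, wild-type sham glands at 5.39 and 5.43 lay above heterozygous 4-week glands at 5.17 and 5.23. Tox3 was dim: 12 of 17 glands reached 4.55, the level that the filter on low values asks of a gene's mean over all arrays, and it has a single probe set.

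Cited1 was the least steady gene in the glands, with 6.07, 6.85 and 7.68 in heterozygous sham glands, 7.89 and 8.04 at 1 week and 6.81, 7.59 and 7.91 at 4 weeks. In wild-type glands Cited1 had 8.26, 7.81 and 5.67 after sham treatment, 5.65, 6.86 and 7.13 at 1 week and 6.03, 7.41 and 8.62 at 4 weeks. The 3 wild-type groups overlapped one another. Its SD within groups was 0.97, larger than that of 99.1% of the tested genes, and that of Greb1 was 0.60 (96.5%), against a median gene at 0.20. Pgr (0.38), Gata3 (0.37), Foxa1 (0.35), Tbx3 (0.32), Tox3 (0.29) and Esr1 (0.23) were steadier.

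**Figure D1:**
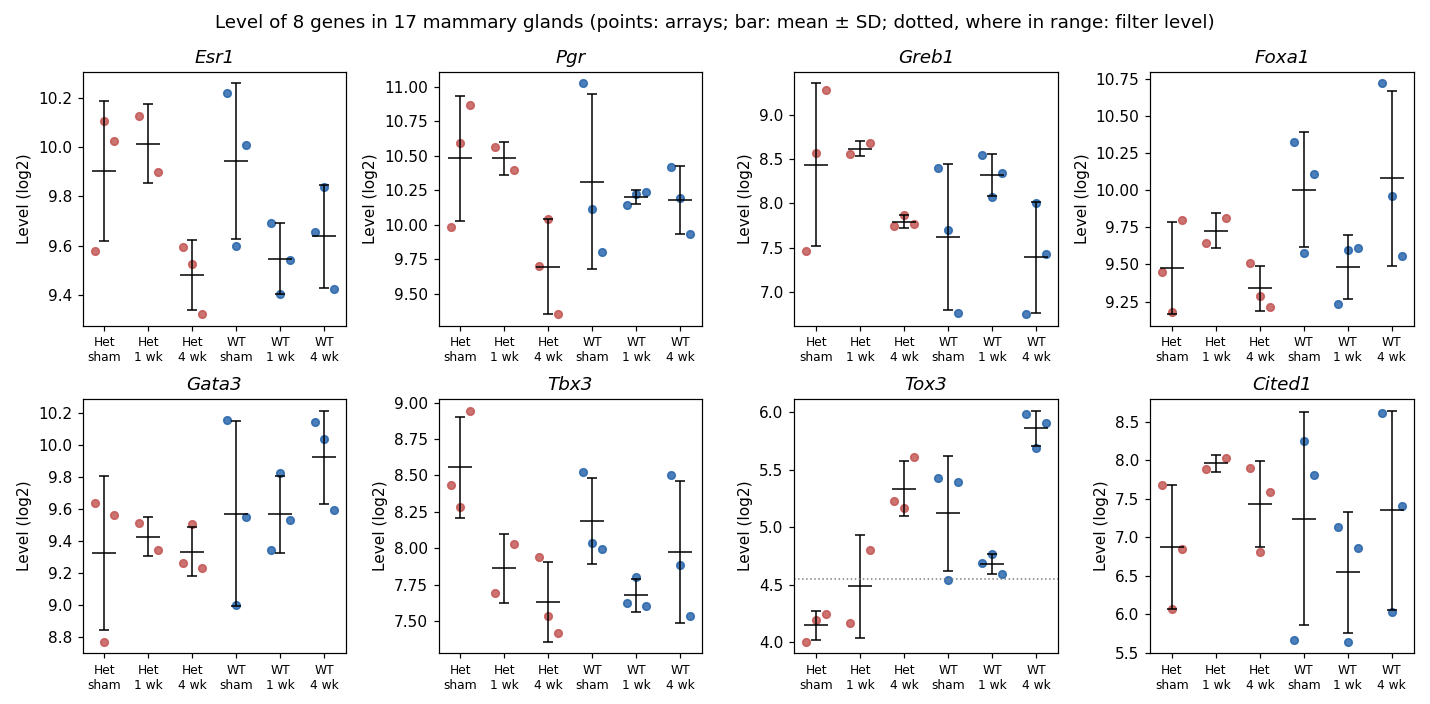
Log2 level (vertical axis, a scale per gene) of 8 genes in 17 glands by group, heterozygous groups in red and wild-type groups in blue, each in the order sham, 1 week and 4 weeks; points are arrays and bars are mean ± SD. Tox3 is highest at 4 weeks in both genotypes, and Cited1 runs between 5.65 and 8.62 in wild-type glands.

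Irradiation and time were compared with limma across 12208 genes, with all 17 glands in 1 fit and p-values adjusted by Benjamini and Hochberg over all genes. Tox3 was the 1 gene of 8 that changed: 4 weeks after 10 cGy it was higher than 1 week after by 1.01 on the log2 scale, averaged over genotypes (SE 0.17, limma adjusted p = 0.0493). In this comparison 8 genes passed, 0.0655% of those tested. All 6 glands at 4 weeks lay above all 5 glands at 1 week. Groups were likewise apart for Greb1, lower by 0.88 at 4 weeks (SE 0.33, limma adjusted p = 0.251), so 2 of 8 genes did not overlap, against 1.79% of all genes. Greb1 ranged between 6.75 and 8.00 at 4 weeks against 8.07 to 8.68 at 1 week. The limma unadjusted p was under 0.05 for those 2 genes and for 15.3% of all genes.

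The Tox3 call was close to the threshold. It was lost in 15 of 17 fits that left out 1 gland, with adjusted p up to 0.141 and differences of 0.86 to 1.17, and kept without wild-type sham replicate 1 (adjusted p = 0.0229) or wild-type 4-week replicate 1 (adjusted p = 0.0448). Without the 7 muscle-rich glands the difference was 1.09 with adjusted p = 0.795, and with the muscle list as a covariate it was 1.03 with adjusted p = 0.0436. Among glands of a group Tox3 and the muscle list correlated at r = 0.66 (permutation adjusted p = 0.387 over 96 relations, n = 17). Muscle list means were 5.06 in heterozygous and 7.19 in wild-type glands at 4 weeks, against 6.53 in heterozygous and 6.16 in wild-type glands at 1 week.

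Against sham, no gene changed at 4 weeks in heterozygotes (0 of 8; limma called 2 genes, 0.0164%), and 4 of 8 had an unadjusted limma p under 0.05, against 5.24% of all genes. Tox3 was higher at 4 weeks than after sham treatment by 1.19 (SE 0.22, adjusted p = 0.144). Tbx3 was lower by 0.92 (SE 0.24, adjusted p = 0.507), Pgr by 0.78 (SE 0.28, adjusted p = 0.794) and Esr1 by 0.42 (SE 0.17, adjusted p = 0.873). Tbx3 and Tox3 were the 2 of 8 genes whose heterozygous 4-week and sham groups did not overlap, against 11.9% of all genes. The other 4 probe sets of Tbx3 differed by -0.85, -0.40, -0.14 and -0.20, the last 2 being dim and correlated with the brightest one at r = -0.11 and -0.45 over the glands. The other probe sets of Pgr differed by -0.40 and -0.46, and those of Esr1 by -0.42 and, for a dim one, 0.10.

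The epithelial list averaged 10.05 in heterozygous glands at 4 weeks, against 10.47 in heterozygous sham glands. With that list as a covariate the differences at 4 weeks were -0.49 for Tbx3, -0.34 for Pgr and -0.27 for Esr1, and 1.25 for Tox3. Greb1 differed by -0.64 (SE 0.44) without the covariate, and Foxa1 and Gata3 differed by -0.14 and 0.01.

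In wild-type glands, 4 weeks against sham gave 0 of 8 genes called (0% of all genes) and 1 with an unadjusted limma p under 0.05, against 2.29% of all genes. That gene was Tox3, 0.74 higher (SE 0.22, adjusted p = 1.00), with 1 of 8 groups apart against 5.84% of all genes. Without wild-type sham replicate 1, the low sham gland, the Tox3 difference was 0.45.

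At 1 week, 0 of 8 genes were called in either genotype (0% of all genes in each). In heterozygotes Tbx3 was lower than after sham treatment by 0.69 (SE 0.27, adjusted p = 0.996), the 1 gene of 8 with an unadjusted limma p under 0.05, against 3.69% of all genes. Tbx3 and Cited1 were apart there, 2 of 8 against 16.1% of all genes. In wild-type glands Esr1 was lower than after sham treatment by 0.40 (SE 0.17, adjusted p = 0.968), again 1 of 8 against 4.57%. Tbx3 was the gene whose groups were apart, 1 of 8 against 9.98%.

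Tgfb1 genotype, averaged over sham, 1 week and 4 weeks, gave 0 of 8 calls (limma called 6 genes, 0.0491%) and 2 unadjusted limma p under 0.05, against 12% of all genes. Tox3 was lower in heterozygotes than in wild-type glands by 0.56 (SE 0.13, adjusted p = 0.169) and Foxa1 by 0.34 (SE 0.15, adjusted p = 0.408). The Tox3 call was made without wild-type sham replicate 1, where it was lower in heterozygotes, at -0.66 with adjusted p = 0.0372. The genotype by irradiation interactions called 0 of 8 genes at 1 week and at 4 weeks (0% of all genes in both, limma). At 1 week the interaction for Tox3 was 0.78 (SE 0.33, adjusted p = 1.00), with 2.98% of all genes under 0.05 unadjusted, and at 4 weeks 0 of 8 were, against 1.79%. Over the 6 groups at once limma called 0 of 8 genes (0.0164% of all genes). Tox3 (F = 14.9, adjusted p = 0.0740), Tbx3 (F = 4.18, adjusted p = 0.498) and Esr1 (F = 3.14, adjusted p = 0.593) were the 3 of 8 under 0.05 unadjusted, against 8.23% of all genes.

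**Figure D2:**
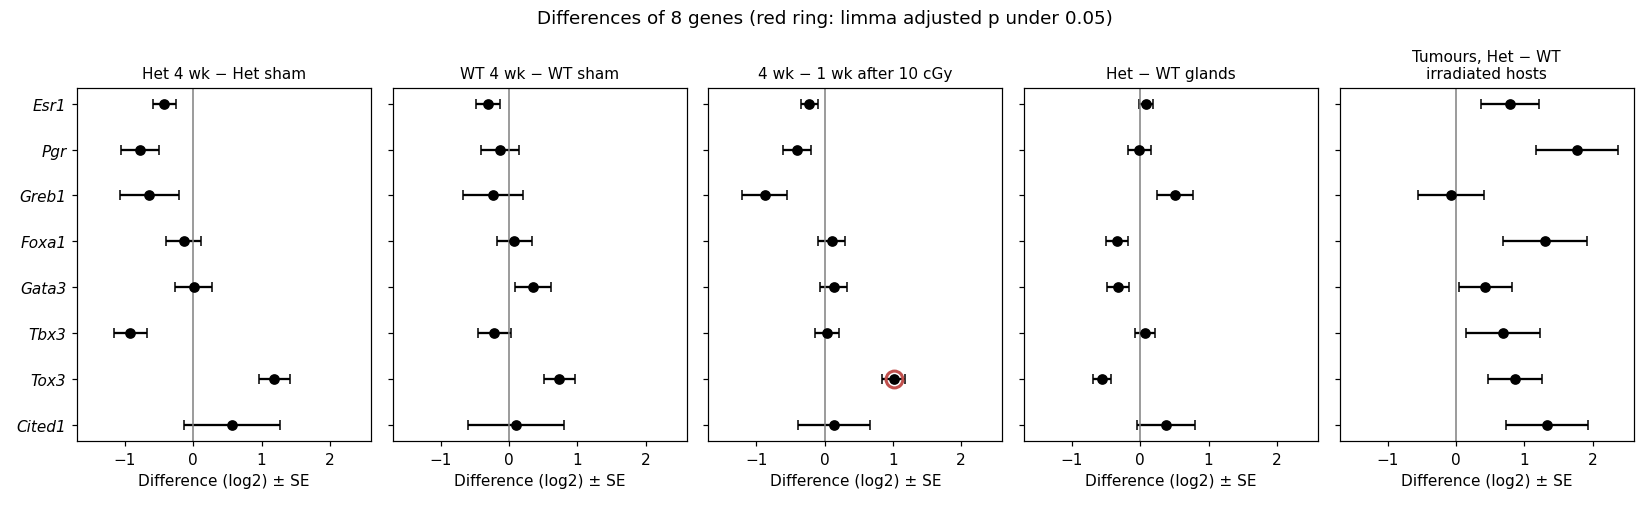
Difference on the log2 scale with its SE for 8 genes in 4 gland comparisons and, at the right, in tumours of irradiated heterozygous minus irradiated wild-type hosts (fit without the filter on low values); a red ring marks limma adjusted p under 0.05. Only Tox3 in the 4-week minus 1-week comparison is ringed, at 1.01.

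Around these genes, the lists of related genes held no call in any of the gland comparisons by limma. In heterozygotes at 4 weeks against sham, the prolactin and STAT5 pathway, the signalling route below the prolactin receptor, had 6 of 10 genes lower with a median of -0.37, against 0.02 over all genes. Its smallest p-values were those of Ptpn1, a phosphatase that acts on JAK2 (-0.51, SE 0.12, adjusted p = 0.366), Socs3, a feedback inhibitor (-0.98, SE 0.25, adjusted p = 0.432), and the kinase Jak2 (-0.56, SE 0.16, adjusted p = 0.630). Of 8 hormone-sensing luminal markers, 4 were lower with a median of -0.08. Named by smallest p, they were Prom1 (-0.97, SE 0.33), Cxcl15 (-0.78, SE 0.28) and Wnt5a (-1.06, SE 0.42), with adjusted p of 0.741, 0.785 and 0.873. Estrogen and progesterone response genes were split, 8 of 12 higher and 4 lower, with Sgk1, a kinase induced by steroids, 0.59 higher (SE 0.24), and Myb (-0.66, SE 0.27) and Stc2 (-0.68, SE 0.29) lower, all at adjusted p of 0.873 or more.

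Luminal transcription factors were divided too in this comparison, 4 of 12 higher with Ehf at 0.87 (SE 0.32, adjusted p = 0.823). Steroid and nuclear receptors (3 of 9 higher, median -0.05) and estrogen receptor cofactors (6 of 10 higher, median 0.08) lay near the median of all genes. In the 4-week minus 1-week comparison Ptpn1 came closest to a call (-0.48, SE 0.09, adjusted p = 0.0648). There Kit, a luminal progenitor receptor, was 0.64 higher (SE 0.16, adjusted p = 0.158).

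In tumours the same genes had larger SDs within groups than in glands, and so had the median tested gene. Their SD among tumours of a host group was 1.65 for Foxa1, 1.63 for Cited1, 1.62 for Pgr, 1.46 for Tbx3, 1.31 for Greb1, 1.16 for Esr1, 1.08 for Tox3 and 1.06 for Gata3. The median tested gene had 0.40, against 0.20 in glands, and each of the 8 lay above at least 91.5% of tested genes. Within their own tissue Cited1 (98.4%) and Greb1 (95.9%) ranked no higher than in glands (99.1% and 96.5%), whereas the others ranked higher. The level of 5.58 that the tumour filter asks of a gene's mean was reached by Gata3 in 48 of 48 tumours, Esr1 in 46, Foxa1 in 42, Tbx3 in 22, Greb1 in 17, Cited1 in 15, Pgr in 14 and Tox3 in 2. Hence 4 of 8 genes, Esr1, Foxa1, Gata3 and Tbx3, passed the filter over 11956 genes, and the other 4 were followed in a fit of all 18194 genes.

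Esr1 ran between 5.84 and 10.60 (median 7.78) in irradiated heterozygous hosts and between 4.65 and 8.39 (median 7.43) in sham heterozygous hosts. In irradiated wild-type hosts it ran between 5.67 and 10.40 (median 6.93), and in sham wild-type hosts between 5.89 and 7.93 (median 6.53). All 4 groups overlapped widely, with single tumours above 10 in irradiated hosts of both genotypes. The wild-type-host tumour at 10.40 had the epithelial list at 7.05 and skeletal muscle markers at 11.07. In the heterozygous-host tumour at 10.60 these were 12.1 and 5.04. The part of cell content in these levels was not tested.

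Pgr ran between 3.95 and 12.37 (median 6.01) in irradiated heterozygous hosts and between 4.01 and 10.49 (median 5.67) in sham heterozygous hosts. In irradiated wild-type hosts it ran between 3.84 and 7.62 (median 4.62), and in sham wild-type hosts between 3.66 and 8.35 (median 5.02). The groups overlapped at their lower ends. A Pgr level above 5.58 was seen in 6 of 10 and 3 of 6 tumours of irradiated and sham heterozygous hosts, and in 2 of 23 and 3 of 9 of irradiated and sham wild-type hosts.

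Cited1 ran between 4.36 and 10.97 (median 6.12) in irradiated heterozygous hosts and between 4.14 and 9.71 (median 5.34) in sham heterozygous hosts. In irradiated wild-type hosts it ran between 4.08 and 9.81 (median 4.55), and in sham wild-type hosts between 4.35 and 6.39 (median 4.69). The groups overlapped, and Cited1 exceeded 5.58 in 6 of 10 and 3 of 6 tumours of irradiated and sham heterozygous hosts, and in 4 of 23 and 2 of 9 of irradiated and sham wild-type hosts.

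Foxa1 ran between 4.64 and 12.43 (median 7.94) in irradiated heterozygous hosts and between 4.19 and 10.72 (median 7.30) in sham heterozygous hosts. In irradiated wild-type hosts it ran between 4.38 and 8.58 (median 7.01), and in sham wild-type hosts between 4.51 and 10.69 (median 6.00). Foxa1 exceeded 10 in tumours of irradiated heterozygous (12.43 and 10.26), sham heterozygous (10.72) and sham wild-type hosts (10.69). It did so in none of irradiated wild-type hosts.

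Gata3 was high throughout, with medians of 9.56 in irradiated and 9.31 in sham heterozygous hosts, and 9.48 in irradiated and 8.94 in sham wild-type hosts. Its lowest tumours had 8.83 and 8.56 in irradiated and sham heterozygous hosts, against 6.55 and 6.95 in irradiated and sham wild-type hosts. Tbx3 medians were 6.17 in irradiated and 7.16 in sham heterozygous hosts, and 4.75 in irradiated and 4.81 in sham wild-type hosts, with highest tumours of 9.96, 8.10, 9.07 and 6.83 in the same order. All 4 groups overlapped for both genes.

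Greb1 medians were 5.41 in irradiated and 6.11 in sham heterozygous hosts, and 4.94 in irradiated and 5.03 in sham wild-type hosts. Its highest tumour, at 9.66, was from an irradiated wild-type host. Tox3 was near the floor, with medians of 3.61 in irradiated and 3.32 in sham heterozygous hosts, and 3.36 in irradiated and 3.35 in sham wild-type hosts. A Tox3 level above 5.58 was seen in 1 tumour of an irradiated heterozygous host (9.54) and 1 of a sham wild-type host (6.18).

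**Figure D3:**
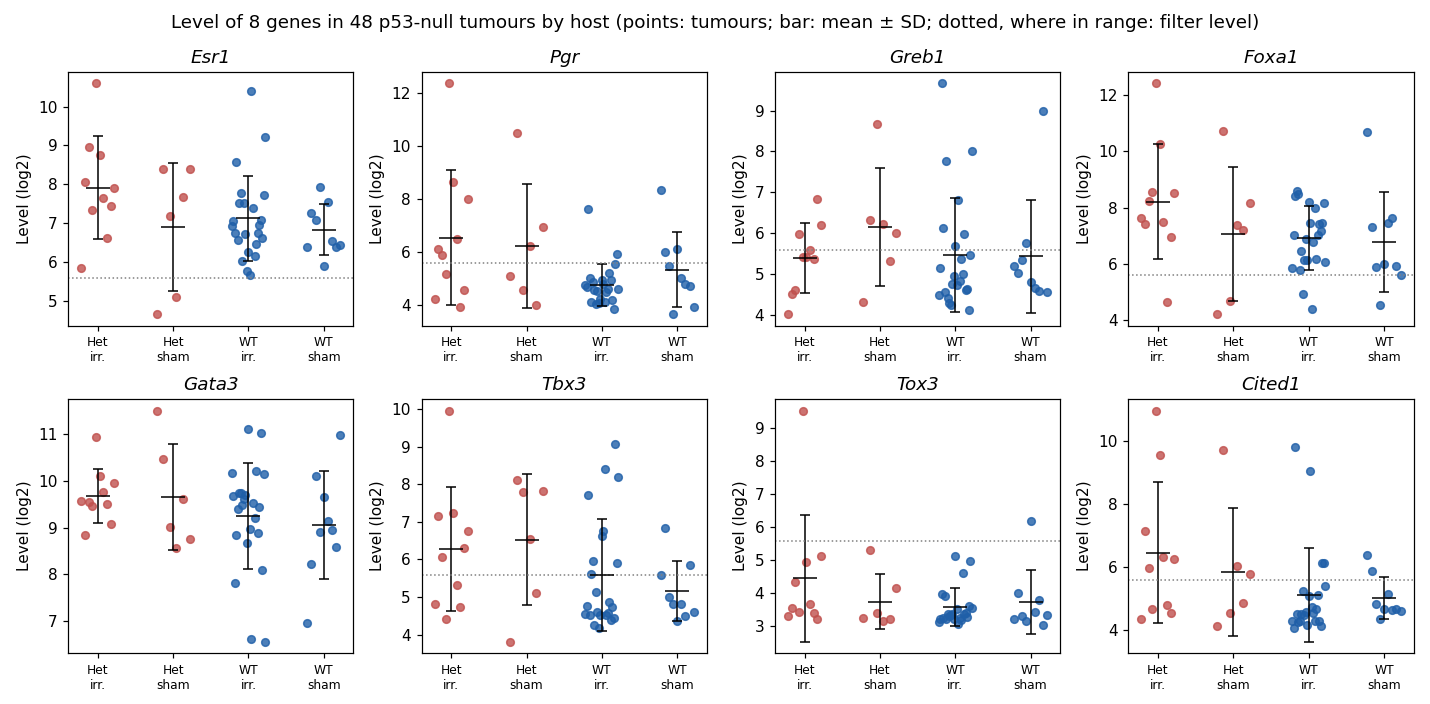
Log2 level (vertical axis, a scale per gene) of 8 genes in 48 tumours by host group, heterozygous hosts in red and wild-type hosts in blue, irradiated left of sham; points are tumours and bars are mean ± SD. Gata3 lies above the filter level of 5.58 in all tumours, whereas Pgr, Cited1, Tbx3 and Greb1 are below it in most.

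A single tumour held the highest level of 6 of the 8 genes. Replicate 14 of irradiated heterozygous hosts had 10.60 for Esr1, 12.37 for Pgr, 12.43 for Foxa1, 9.96 for Tbx3, 9.54 for Tox3 and 10.97 for Cited1. Its Gata3 (10.94) was among the 5 highest of 48, and its Greb1 (5.42) was not. Replicate 5 of sham heterozygous hosts was among the 5 highest for 5 genes, with Pgr at 10.49, Foxa1 at 10.72, Tbx3 at 8.10, Tox3 at 5.30 and Cited1 at 9.71. Replicate 9 of irradiated heterozygous hosts was among the 5 highest for 4 genes, with Esr1 at 8.76, Pgr at 8.66, Foxa1 at 10.26 and Cited1 at 9.56. These 3 tumours ranked 3, 5 and 2 of 48 for the epithelial list (12.1, 12.0 and 12.1), and replicate 9 also had skeletal muscle markers at 9.70. Their part in these levels was not tested.

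Host genotype and host irradiation were tested with limma over all 48 tumours. Heterozygous against wild-type irradiated hosts gave 0 of 4 filtered genes called (0.00836% of all genes), and Foxa1 was the 1 of 4 with an unadjusted limma p under 0.05, against 5.42% of all genes. Foxa1 was 1.31 higher in heterozygous hosts (SE 0.61, adjusted p = 0.900). In the fit of all genes, 0 of 8 were called (0.011% of all genes) and 4 of 8 were higher with an unadjusted limma p under 0.05, against 3.12% of all genes higher and 6.45% in either direction. Pgr was higher by 1.78 (SE 0.60, adjusted p = 0.581), Cited1 by 1.34 (SE 0.60, adjusted p = 0.738), Foxa1 by 1.31 (adjusted p = 0.751) and Tox3 by 0.87 (SE 0.40, adjusted p = 0.746). Greb1 differed by -0.07, and the other 7 of 8 were higher in heterozygous hosts, where 50% of the filtered genes were lower.

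Much of these differences came with 1 tumour. Without replicate 14 of irradiated heterozygous hosts, Pgr was higher by 1.13, Cited1 by 0.84, Foxa1 by 0.84 and Tox3 by 0.30. These are the lowest values over the 48 fits that left out 1 tumour, and none of those fits made a call. The other Pgr probe sets, both dim, differed by 0.37 (SE 0.17) and 0.42 (SE 0.22).

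The remaining tumour comparisons gave no call and no unadjusted limma p under 0.05 among the 4 filtered genes. Irradiated against sham wild-type hosts gave Esr1 at 0.30, Foxa1 at 0.13, Gata3 at 0.19 and Tbx3 at 0.43, where 6.71% of all genes were under 0.05 unadjusted and 0% called. Irradiated against sham heterozygous hosts gave Esr1 at 1.02 (SE 0.58), Foxa1 at 1.15 (SE 0.83), Gata3 at 0.03 and Tbx3 at -0.26, with 3.97% of all genes under 0.05 and 0% called. In sham hosts, heterozygous against wild-type, Tbx3 was at 1.38 (SE 0.75), with 5.14% under 0.05 and 0% called. The interaction of host genotype and irradiation gave Foxa1 at 1.02 (SE 1.05) and Tbx3 at -0.68 (SE 0.92), with 4.75% under 0.05 and 0% called. Over the 4 groups at once 0 of 4 filtered genes had an unadjusted limma p under 0.05, against 6.38% of all genes. Pgr had F = 3.52 (adjusted p = 0.558) in the fit of all genes, the 1 of 8 under 0.05 unadjusted against 7.74%, and 0.0055% of genes were called. In the fit of all genes, 0 of 8 had an unadjusted limma p under 0.05 in irradiated against sham wild-type hosts (7.4% of all genes, 4.36% higher). The same count was 0 of 8 in irradiated against sham heterozygous hosts (4.2%, 1.68% higher) and in heterozygous against wild-type sham hosts (6.16%, 3.94% higher). It was also 0 of 8 for the interaction (4.97%, 1.87% higher). All 8 genes were higher in heterozygous than in wild-type sham hosts, by 0.03 to 1.38, where 50.7% of the filtered genes were lower. The 8 were measured in the same tumours and several moved together, so they are not separate results. SEs of the filtered genes' differences ran between 0.39 and 1.04 log2 units.

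Related gene lists held no call in heterozygous against wild-type irradiated hosts either. All 7 hormone-sensing luminal markers tested were higher, with a median of 0.35 against 0.00 over all genes, led by Cxcl15 at 1.67 (SE 0.58, adjusted p = 0.844). All 11 luminal progenitor and alveolar markers were higher as well, with a median of 0.35, led by the milk gene Wap at 1.57 (SE 0.74, adjusted p = 0.915). Among estrogen and progesterone response genes 9 of 12 were higher, with Stc2 at 1.03 (SE 0.41, adjusted p = 0.868) and the cell cycle gene Ccnd1 at 0.45 (SE 0.22, adjusted p = 0.918). Steroid and nuclear receptors (3 of 8 higher), estrogen receptor cofactors (5 of 10), the prolactin and STAT5 pathway (6 of 10) and luminal transcription factors (4 of 10) were split. Other marker lists moved with these: epithelial (11 of 11 higher, median 0.30), basal and myoepithelial (9 of 9, 0.46), endothelial (6 of 6, 0.64), skeletal muscle (8 of 10, 0.44) and adipocyte markers (5 of 5, 0.82) were higher, and proliferation genes lower (11 of 11, median -0.14). Their part in the result was not tested.

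How the genes moved together was measured on deviations from the host group means, with a permutation test within groups and adjustment over the 28 pairs. Across 48 tumours 22 of 28 pairs were positive, and 16 passed on Pearson's r, 14 of them positive and 2 negative. On Spearman's rho 11 passed, each of them positive and each also among the 16. The median r was 0.33.

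The closest pair was Pgr and Cited1, with r = 0.82 (permutation adjusted p = 7e-05, rho = 0.74), and r = 0.73 without the 2 tumours farthest from the median of Pgr. Within groups r was 0.93 in irradiated and 0.95 in sham heterozygous hosts, and 0.72 in irradiated and 0.85 in sham wild-type hosts. Pgr and Foxa1 had r = 0.77 (rho = 0.61), and 0.67 without the 2 farthest tumours. Pgr and Tox3 had r = 0.75 (rho = 0.65), and 0.54 without them, with 0.94 and 0.93 in irradiated and sham heterozygous hosts against 0.45 and 0.23 in irradiated and sham wild-type hosts. Tox3 with Foxa1 had 0.84 and 0.80 in irradiated and sham heterozygous hosts, against 0.43 and -0.08 in irradiated and sham wild-type hosts. Tox3 with Cited1 had 0.84 and 0.89 against 0.28 and -0.10 in the same order. Tox3 reached the filter level in 2 of 48 tumours. These differences between hosts were not tested. Tbx3 had r = 0.66 with Cited1 and 0.57 with Pgr. The values of irradiated heterozygous hosts include replicate 14, the highest tumour for 6 of the genes.

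Esr1 and Pgr, a known estrogen target, had r = 0.37 (permutation adjusted p = 0.0495) and rho = 0.23 (adjusted p = 0.198), r = 0.28 without the 2 tumours farthest in Esr1 and 0.13 without the 2 farthest in Pgr. It was 0.88 and 0.40 in irradiated and sham heterozygous hosts against -0.06 and -0.38 in irradiated and sham wild-type hosts. With the epithelial list removed it was 0.48 (permutation adjusted p = 0.0143). Pooled without removing group means it was 0.39 (permutation adjusted p = 0.0147). Esr1 ran closest with Tbx3, at r = 0.52 (permutation adjusted p = 0.00245), and 0.35 without the 2 farthest tumours.

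Of the 7 pairs with Gata3, 3 were positive, and the lowest r of all pairs were Gata3 with Tbx3 (-0.43, permutation adjusted p = 0.0072), with Greb1 (-0.43, permutation adjusted p = 0.0135) and with Esr1 (-0.24, permutation adjusted p = 0.154). On rho neither of the first 2 passed (adjusted p = 0.0621 for both). Without the 2 tumours farthest in Gata3 they were -0.27 and -0.31, so the relation rests in part on those tumours. Gata3 with Tbx3 was -0.53 without the 2 farthest in Tbx3, and Gata3 with Greb1 was -0.39 without the 2 farthest in Greb1. Gata3 with Tbx3 was -0.64 in irradiated and -0.58 in sham wild-type hosts, and -0.57 in sham but 0.60 in irradiated heterozygous hosts. With irradiated wild-type hosts alone 2 of 28 pairs passed, Pgr with Cited1 (positive) and Gata3 with Tbx3 (negative).

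**Figure D4:**
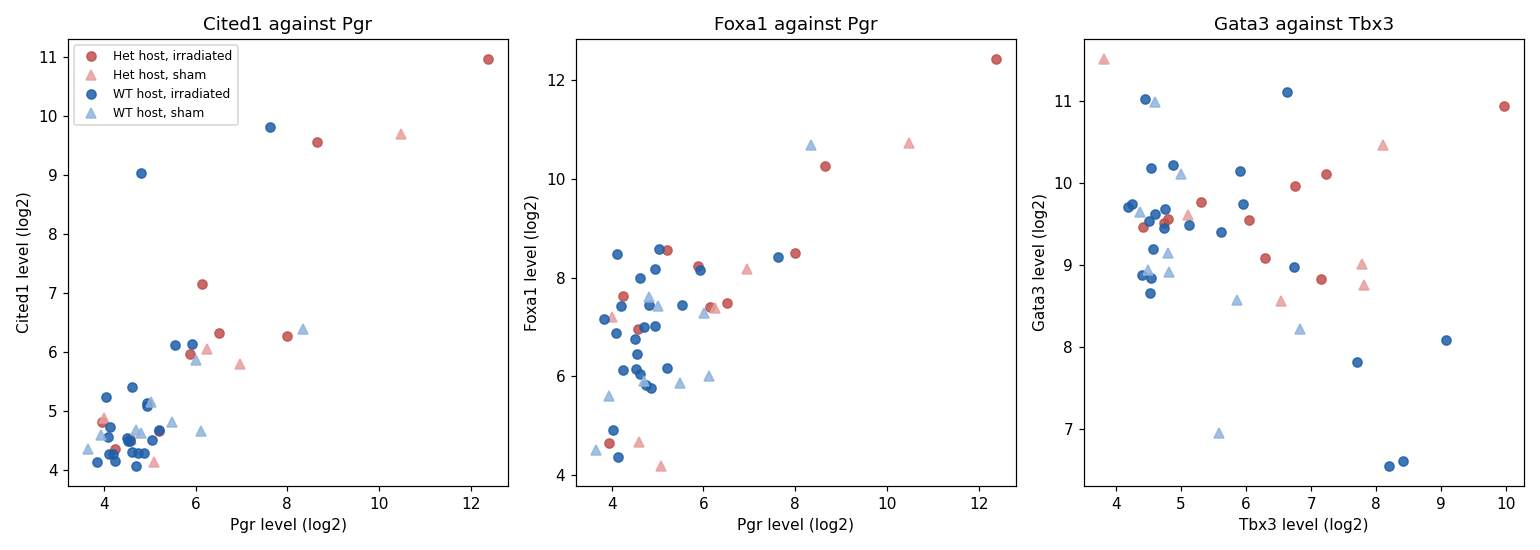
Log2 levels in 48 tumours of Cited1 against Pgr, Foxa1 against Pgr and Gata3 against Tbx3, with heterozygous hosts in red and wild-type hosts in blue, circles for irradiated and triangles for sham hosts. Cited1 and Foxa1 climb with Pgr up to the tumour at 12.37, and the tumour lowest in Gata3 (6.55) has Tbx3 at 8.20.

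In the glands 21 of 28 pairs were positive, and 1 passed on r, Foxa1 with Tbx3 (r = 0.87, permutation adjusted p = 0.042, rho adjusted p = 0.0706, n = 17). Without the 2 glands farthest from the median it was 0.77 with adjusted p = 0.434. Foxa1 with Gata3 had 0.73 (permutation adjusted p = 0.214) and Pgr with Greb1 0.66 (permutation adjusted p = 0.367). Cited1 had the lowest values, -0.60 with Greb1, -0.53 with Pgr and -0.51 with Esr1 (permutation adjusted p = 0.367 each). The test of a difference between tissues was not made.

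**Figure D5:**
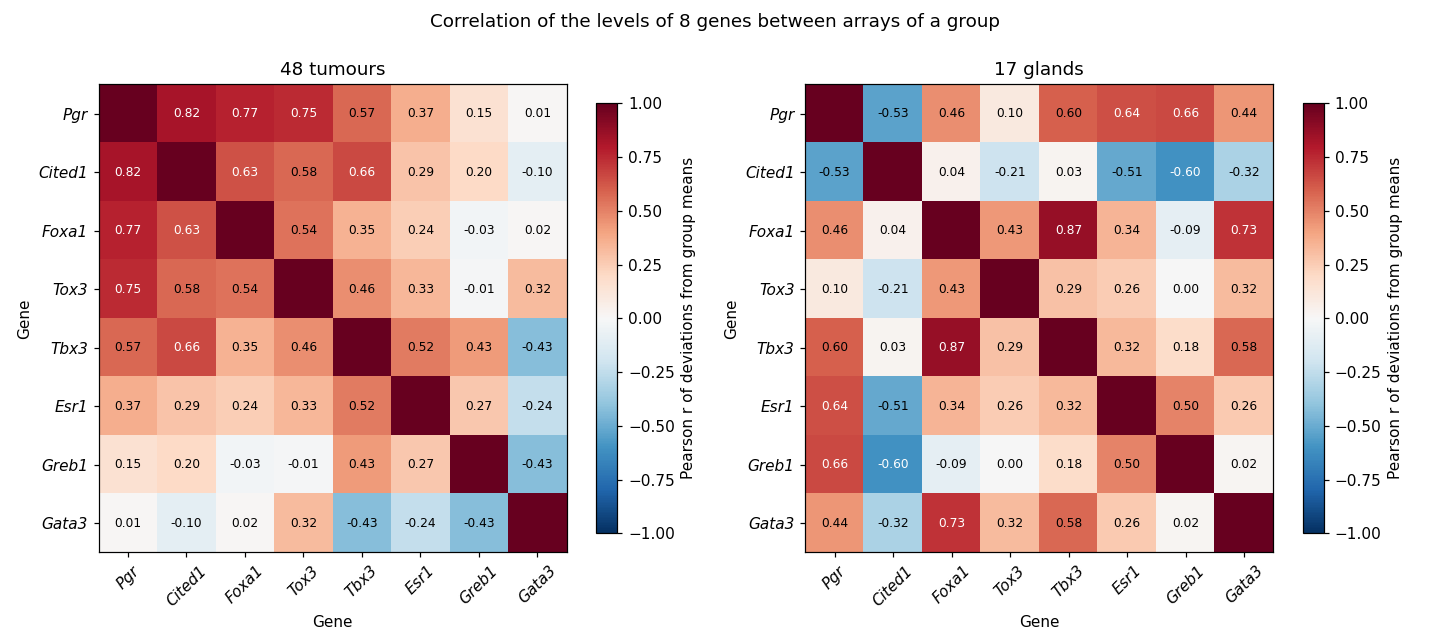
Pearson r between 8 genes (rows and columns) of deviations from group means, in 48 tumours at the left and 17 glands at the right, coloured red for positive and blue for negative on a scale of -1 to 1. Pgr, Cited1, Foxa1 and Tox3 form a positive block over all tumours, at 0.54 to 0.82. In sham wild-type hosts Tox3, dim in most tumours, had -0.08 with Foxa1 and -0.10 with Cited1, and positive r in the other host groups. Cited1 is negative with Pgr (-0.53) in glands.

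Cell content was set beside these genes through 12 marker lists, which makes 96 relations in tumours, of which 24 passed on r and 19 on rho. The hormone-sensing luminal list followed Foxa1 (r = 0.69, permutation adjusted p = 0.00096), Pgr (0.63, permutation adjusted p = 0.0012), Tox3 (0.52, permutation adjusted p = 0.00875), Cited1 (0.48, permutation adjusted p = 0.0186) and Gata3 (0.40, permutation adjusted p = 0.0307). On rho Cited1 (adjusted p = 0.149) and Gata3 (adjusted p = 0.0932) did not pass, and Gata3 was at 0.23 without the 2 farthest tumours. The hormone-sensing luminal list had r = 0.08 with Esr1, 0.10 with Tbx3 and -0.07 with Greb1. Cited1 also ran with basal and myoepithelial markers (r = 0.65, permutation adjusted p = 0.00224), and so did Foxa1 (r = 0.44, permutation adjusted p = 0.0202). Foxa1 ran with the epithelial list as well (r = 0.42, permutation adjusted p = 0.013). Each of these relations of Cited1 and Foxa1 with the basal and epithelial lists passed on rho too.

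Tbx3 and Gata3 had r of opposite sign with the luminal progenitor and epithelial lists. Tbx3 had r = 0.59 with fibroblast markers and -0.59 with luminal progenitor and alveolar markers (permutation adjusted p = 0.0012 each), and -0.46 with the epithelial list (permutation adjusted p = 0.013). The last of these was -0.29 without the 2 farthest tumours and did not pass on rho (adjusted p = 0.302). Gata3 had r = 0.62 with luminal progenitor and alveolar markers (permutation adjusted p = 0.00154), 0.51 with the epithelial list (permutation adjusted p = 0.00875) and -0.46 with proliferation genes (permutation adjusted p = 0.0202). With the epithelial list it was 0.25 without the 2 farthest tumours and did not pass on rho (adjusted p = 0.218). Esr1 had 0.48 with fibroblast markers (permutation adjusted p = 0.013) and -0.39 with the epithelial list (permutation adjusted p = 0.0321), the second being -0.11 without the 2 farthest tumours and not past the threshold on rho (adjusted p = 0.504). Greb1 had 0.41 with skeletal muscle markers (permutation adjusted p = 0.0307). With the epithelial list removed 16 of 28 gene pairs passed, but not all the same ones. Gata3 with Tbx3 was then -0.25 (permutation adjusted p = 0.119) and Gata3 with Tox3 0.27 (permutation adjusted p = 0.0528), both no longer past the threshold. Esr1 with Foxa1 (0.49, permutation adjusted p = 0.00601) and Esr1 with Tox3 (0.45, permutation adjusted p = 0.0236) passed in their place, and no other list was removed.

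The genes most like each of these over the 48 tumours are given as a description, out of 11960 genes searched. Pgr was closest to Cxcl15 (r = 0.91), Gipc2 (0.90) and Fam25c (0.86), and Cited1 to Fgfr2, a receptor for fibroblast growth factors (0.93), Gipc2 (0.84) and Cntfr (0.84). Foxa1 was closest to Pgr itself (0.77), Cxcl15 (0.71) and Cdo1 (0.69). Tox3 was closest to Vill (0.83), Stc2 (0.80) and Sprr1a (0.80).

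Gata3 was closest to Sdr42e1 (0.82), Trps1, which encodes a GATA-type zinc finger repressor (0.80), and Agps (0.79), and Tbx3 to Ankrd33b (0.81), Dnajb4 (0.81) and Slc24a3 (0.78). Esr1 had Il33, a cytokine (0.75), Dmpk (0.70) and Bmper (0.70), and Greb1 had Mical1 (0.65), Gpx7 (0.65) and Ngfr (0.64), weaker than the others. Over the 17 glands, among 12208 genes, the closest were Per3 for Esr1 (0.89), Aff4 for Pgr (0.94), Daam1 for Foxa1 (0.92), Foxj3 for Gata3 (0.92), Sipa1l3 for Tbx3 (0.90), Pggt1b for Greb1 (0.87), Mrvi1 for Tox3 (0.90) and Zdhhc3 for Cited1 (0.91). None of these gland neighbours is among the 3 nearest in tumours.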

How the data were processed

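The deposited gland values are linear RMA intensity, one value per probe set, and the authors deposited the tumour values as log2 RMA values; RMA is named in the submitters' processing notes, and the scale was read from the values. Array medians were 29.08 to 30.56 intensity units in glands and 5.84 to 5.96 log2 units in tumours, and the number of arrays limits the precision. Gland intensities were log2-transformed here, and nothing else was rescaled.

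For each gene the brightest probe set on average was used, named by the platform annotation: of 45101 probe sets, 34958 had 1 gene, 932 several and 9211 none. Genes below the 40th percentile of mean level (4.55 in glands, 5.58 in tumours) were left out of the tests. limma 3.58.1 (R 4.3.3, variance trend) was fitted once per tissue on group means without a replicate block, with Benjamini-Hochberg adjustment and a threshold of 0.05. It was tested on simulated data beforehand.

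The genes, lists and comparisons were chosen with earlier results of these data known. Text names all 8 measured genes, up to 3 genes with the smallest p of a list, the 3 most similar genes and the 3 highest and lowest pairs; Tbx3 pairs, Esr1 with Pgr, Esr1 with Tbx3 and the list correlations were picked after their values were seen. Pairs use 100000 permutations within groups over 28 pairs; 36 had been planned with 9 genes. Same-numbered sham and 4-week glands deviated together in each genotype (r = 0.101 to 0.247 in wild type, 0.114 to 0.323 in heterozygotes), though the labels state no pairing. Other group pairs did not all do so.

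Alternatives were the filter, the summary of probe sets, quantile normalization, array weights, the replicate block, content covariates, and leaving out single arrays or muscle-rich or lymph-node-rich glands. The muscle covariate, a filter set over all probe sets and the repeats on the tumour fit of all genes were added after seeing the data. Python 3.11.15, pandas 2.3.3, numpy 2.4.6, scipy 1.17.1 and matplotlib 3.10.9 were used for the rest.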

Additional observations from a re-analysis of the deposited data

Results flagged for a closer look

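Each of the 8 genes was examined in the host groups of 6, 9 and 10 tumours, which makes 24 sets of values. Of these, 6 held a tumour far above the others by Dixon's criterion. For independent sets of normally distributed values, chance meets it in about 1 of 20. These sets share tumours and some genes are dim, so that rate does not apply here. In irradiated heterozygous hosts, replicate 14 had Tbx3 at 9.96, with the next tumour at 7.22, and Tox3 at 9.54, with the next at 5.12. In sham heterozygous hosts, replicate 5 had Cited1 at 9.71, with the next at 6.05. In sham wild-type hosts, replicate 3 had Foxa1 at 10.69 (next 7.62), replicate 4 had Greb1 at 8.98 (next 5.75) and replicate 1 had Tox3 at 6.18 (next 4.01). Muscle markers averaged 8.01 in the tumour with high Greb1, and their part in that level was not tested.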

How the results depend on the processing

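The single call, Tox3 at 4 weeks against 1 week, was not kept under 4 alternatives beyond leaving out single glands, so that 0 of 8 genes were called: quantile normalization (difference 1.00, adjusted p = 0.0787), the epithelial covariate (1.01, adjusted p = 0.0564), without muscle-rich glands (1.09, adjusted p = 0.795) and without lymph-node-rich glands (1.04, adjusted p = 0.0679). Leaving out single glands gave 0 to 1 calls here, and the cause was not tested. In heterozygotes at 4 weeks against sham, and over the 6 groups, 1 gene was called in place of 0 with array weights, where Tox3 had adjusted p = 0.0443 and 0.0319. Leaving out single glands gave 0 to 1 calls in both, and in heterozygous against wild-type glands; each time the call was Tox3 without wild-type sham replicate 1. The 1-week interaction of Tox3 reversed without muscle-rich glands, at -0.0931 against 0.78. With the replicate block as a pairing of glands, Tox3 at 4 weeks against 1 week was 1.00 (adjusted p = 0.0462), and the block changed no call among the genes. Pairs past the threshold in glands, 1 in the main setting, were 2 pooled without removing group means, 0 with epithelial content removed and 0 without the 2 farthest arrays. In tumours, 16 in the main setting, they were 10 without the 2 farthest arrays and 2 in irradiated wild-type hosts alone. Averaging probe sets lowered the tumour SD to 0.71 for Esr1, 0.84 for Pgr, 0.69 for Tbx3 and 0.66 for Greb1. Dim signal limits Tox3 in both tissues and Pgr, Cited1, Greb1 and Tbx3 in most tumours. Tbx3 passed the filter on its mean but reached that level in 22 of 48 tumours.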

Other observations

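At 1 week after 10 cGy in wild-type glands, all 11 luminal progenitor and alveolar markers tested were lower than in sham glands, with a median of -0.45 on the log2 scale against -0.02 over all genes. By limma 0 of 11 passed the adjusted threshold and 2 of 11 had an unadjusted p under 0.05, against 4.57% of all genes. The smallest p-values were those of Cd14, a receptor found on luminal progenitors (-0.57, limma adjusted p = 0.968), and Csn3, the milk protein kappa-casein (-1.24, limma adjusted p = 0.968). Estrogen and progesterone response genes (2 of 12 higher) and luminal transcription factors (2 of 12 higher) were mostly lower in the same comparison, where 55.7% of all genes were lower, again without a call. The epithelial list averaged 10.1 at 1 week and 10.3 in sham glands, while macrophage markers were higher (9 of 9, median 0.54) and skeletal muscle markers lower (13 of 13, median -2.21) at 1 week. Their part in these differences was not tested.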
